A study of Homo sapiens with 6 samples.

Results

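The genes described here encode 10 surface ligands through which an epithelial cell can engage lymphocytes: CD40, CD274, PDCD1LG2, CD276, ICOSLG, ICAM1, CD58, PVR, NECTIN2 and VTCN1. They were taken by symbol from the deposited count table, which lists 31831 genes, and all 10 were listed and passed the filter on low counts. The cells were HK-2, a human cell line established from the epithelium of the renal proximal tubule, kept in medium with 30 mM glucose for 72 h. In 3 libraries the cells carried the control lentivirus without the insert (HG-NC), and in 3 libraries they carried the lentivirus that overexpresses hnRNP-F (HG-OE), an RNA-binding protein with roles in splicing. Both groups therefore share the high glucose and the lentiviral transduction. The methods describe parallel wells for each group, while the paper elsewhere calls the libraries biological replicates. The p-values measure the spread between these libraries, which may be no more than that between wells.

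A T cell that meets antigen also reads further signals from the cell that presents it. Ligands of the B7 family either promote the response, as the ICOS ligand does, or restrain it, as both ligands of the receptor PD-1 do, while CD40 receives help from T cells and ICAM1 and CD58 hold the contact together. PVR and NECTIN2 are read by an activating receptor (CD226) and by inhibitory receptors (TIGIT, CD96 and PVRIG) on T and NK cells. Tubular epithelium is not a professional antigen-presenting cell, but several of these ligands are known to be induced on it by inflammatory cytokines.

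The deposited counts added up to between 25507595 and 29444841 per library. The targeted gene, HNRNPF, had 304.1 to 318.6 normalized counts (CPM, scaled to the size of the library) in the controls and 423.3 to 451.8 with overexpression. HG-OE replicate 3 stood apart. Its counts differed from those of the other HG-OE libraries by a chi-square per gene of 11.09 and 11.48. Between those 2 libraries the value was 2.71, and within HG-NC it was 2.176 to 3.477. HG-OE replicate 3 also held 4359 counts of ALB, a liver gene, against 0 and 1 in HG-OE replicates 1 and 2. The HG-NC libraries held 4, 1 and 78 counts of ALB in the order of the replicate numbers. Of 12 liver markers all were listed, and their summed level was 265.9 to 277.0 CPM in the control libraries and 461.3 to 725.1 CPM in HG-OE. SERPINA1 alone made up most of that sum, with 265.9 ± 8.38 and 436.6 ± 36.3 CPM (mean ± SD, n = 3). The filter on low counts removed 10 of the 12. Of these, APOB, TF and FGA had 1583, 1006 and 761 counts in HG-OE replicate 3, against 0 or 1 in HG-OE replicates 1 and 2. In HG-NC replicate 3 they had 53, 11 and 65 counts, against 0 to 5 in HG-NC replicates 1 and 2. FGB was the one DEG among the 12 (log2 fold change 3.41, with 994 counts in HG-OE replicate 3 against 124 and 134). The part of these markers in the results was not tested. Without HG-OE replicate 3, the log2 fold changes of the members were 0.17 for CD40, -1.73 for CD274, 1.17 for PDCD1LG2, 0.39 for CD276 and -0.96 for ICOSLG. Those of the others were -0.57 for ICAM1, 0.21 for CD58, -0.40 for PVR, 0.078 for NECTIN2 and 0.77 for VTCN1. Of 9 epithelial markers, 8 were tested, with 4 higher and 3 lower at an adjusted p under 0.05 (edgeR). Of all genes tested, 25.9% were called in each direction. KRT8 was the one DEG (1.35). The 3 lower were EPCAM (-0.56), KRT19 (-0.55) and PAX8 (-0.51). CDH1 had 2 to 10 counts in 5 libraries and 384 in HG-OE replicate 3. Of 12 proximal tubule markers, 10 were listed and 7 tested, with 2 higher and 1 lower. MME was the one DEG (91 to 140 counts in HG-NC, 236 to 261 in HG-OE, 1.02). GATM, at 257 to 392 counts, was higher (0.29) and ALPL, at 22 to 55 counts, lower (-0.91). LRP2, a defining marker, had 0 counts in 5 libraries and 17 in HG-OE replicate 3. Endothelial and fibroblast markers summed to 1.63 to 2.33 and 33.3 to 43.7 CPM over all 6 libraries. Their DEGs were VWF (6 to 33 counts, log2 fold change 1.73) and PDGFRB (8 to 65 counts, 2.25). LUM (506 to 713 counts, -0.25) and COL1A1 (289 to 367 counts, -0.23), the most counted fibroblast markers, did not pass. COL1A2 had 0 counts in 5 libraries and 141 in HG-OE replicate 3. ERG, an endothelial marker, was lower (15 to 44 counts, -0.99).

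The set did not move in one direction. In HG-OE, CD274, ICOSLG, ICAM1 and PVR were lower and PDCD1LG2, VTCN1, CD276, CD58 and CD40 were higher at an adjusted p under 0.05 (edgeR quasi-likelihood test, Benjamini-Hochberg adjustment over 17142 genes). NECTIN2 did not pass. Thus 5 of 10 members were higher and 4 of 10 lower, where the same call was made for 25.9% of all genes tested in the higher direction and 25.9% in the lower. With a change of at least 2-fold added, the threshold of the study for differentially expressed genes (DEGs), 1 member was called higher and 2 lower, against 3.69% and 2.13% of all genes. In 9 of 10 members the groups did not overlap, as in 59.0% of all genes tested. The median log2 fold change was 0.14 over the members and 0.011 over all genes, and the median of its absolute size was 0.52 and 0.27. For a single gene, an exact two-sided permutation test of 3 libraries against 3 cannot go below p = 0.1, and these 9 members reached that value. In bulk RNA, fewer cells that express a gene and less RNA per cell cannot be told apart.

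**Figure D1:**
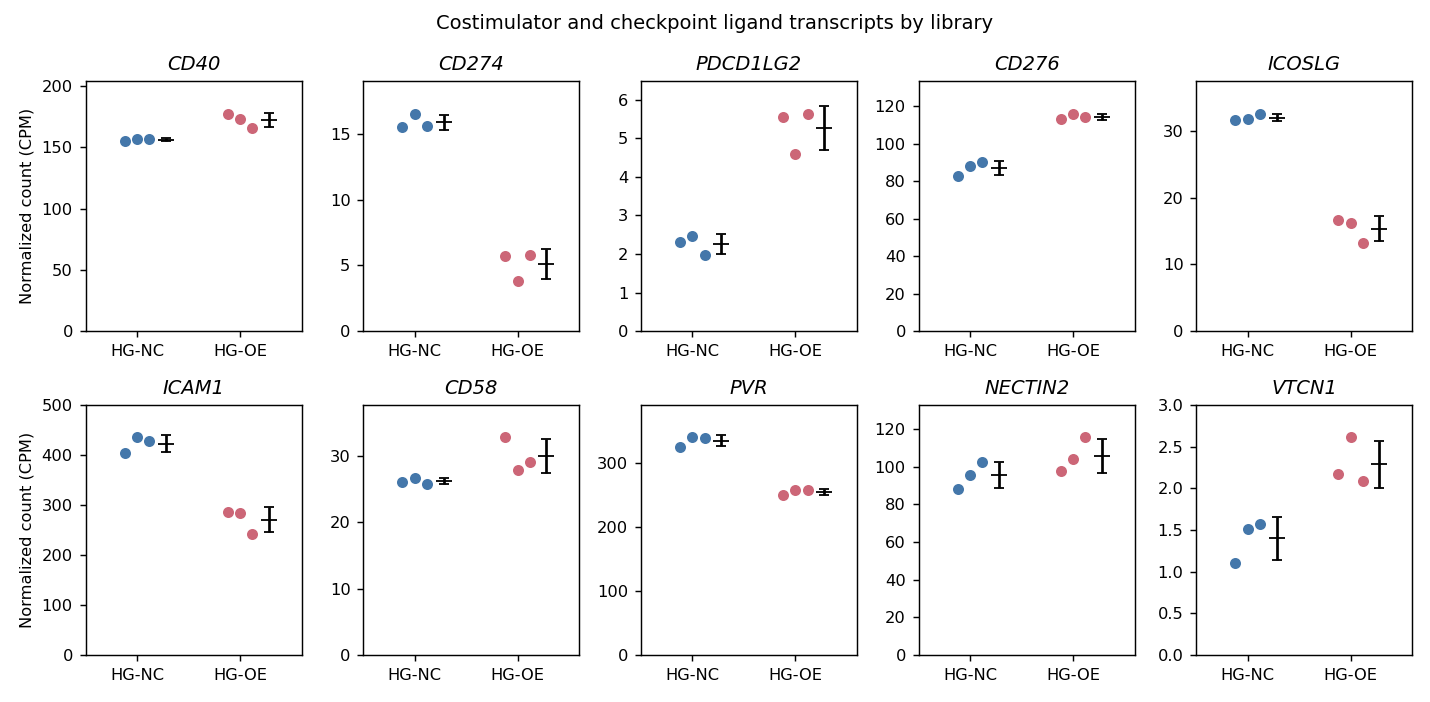
Normalized counts (CPM, y axis from 0) of the 10 members in the 3 HG-NC libraries (blue) and the 3 HG-OE libraries (red), 1 point per library, with the mean and SD beside them in black. CD274 and ICOSLG sit lower and PDCD1LG2 higher in every HG-OE library, while NECTIN2 is the one member whose groups overlap.

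The largest changes in the set were those of the ligands of PD-1, and they went in opposite directions. CD274 (ENSG00000120217.14), which encodes PD-L1, the more widely expressed ligand of PD-1, lies on chromosome 9 of GRCh38 from 5450503 to 5470566. In the order of the replicate numbers, the HG-NC libraries held 395, 448 and 436 counts and the HG-OE libraries 167, 111 and 169, or 15.9 ± 0.569 CPM and 5.11 ± 1.13 CPM (mean ± SD, n = 3). The groups were far apart, and HG-OE replicate 2 was the lowest. The log2 fold change was -1.64 (standard error, SE, 0.134, adjusted p = 3.5e-07, edgeR), so that the HG-NC level was 3.11 times the HG-OE level. Without HG-OE replicate 3 it was -1.73.

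PDCD1LG2 (ENSG00000197646.8), which encodes PD-L2, the other ligand of PD-1, follows CD274 on the same strand, from 5510531 to 5571282. HG-NC libraries held 59, 67 and 55 counts and HG-OE libraries 161, 134 and 165, or 2.25 ± 0.260 CPM and 5.26 ± 0.572 CPM (mean ± SD, n = 3). The lowest HG-OE library lay above the highest HG-NC library. Its log2 fold change was 1.22 (SE 0.159, adjusted p = 2.27e-05, edgeR), a level 2.33 times that in HG-NC. On the log2(FPKM + 1) scale this became 0.67, which is short of 2-fold, since its FPKM was below 1 in HG-NC.

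The pair was also compared by the ratio of FPKM within each library, a scale that corrects for transcript length. The ratio of CD274 to PDCD1LG2 was 3.965, 3.956 and 4.671 in the HG-NC libraries, but only 0.616, 0.494 and 0.605 in those of HG-OE. CD274 was the more abundant of the 2 transcripts in every HG-NC library and PDCD1LG2 in every HG-OE library. The log2 ratio fell by 2.88, a 7.36-fold change, with SDs of 0.138 and 0.177 on the log2 scale in HG-NC and HG-OE (p = 0.1 by an exact two-sided permutation test, which is its minimum, and 0.1 after adjustment over the 3 ratios computed). The 31 other well-counted genes within 10 Mb of CD274 had a median log2 fold change of -0.15, and the 32 within 10 Mb of PDCD1LG2 a median of -0.17. An antisense lncRNA gene (ENSG00000286162) overlaps both genes and had 54 to 72 counts in HG-NC and 32 to 54 in HG-OE. The libraries were directional, but the strand setting of the counting is not given in the sources used here.

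**Figure D2:**
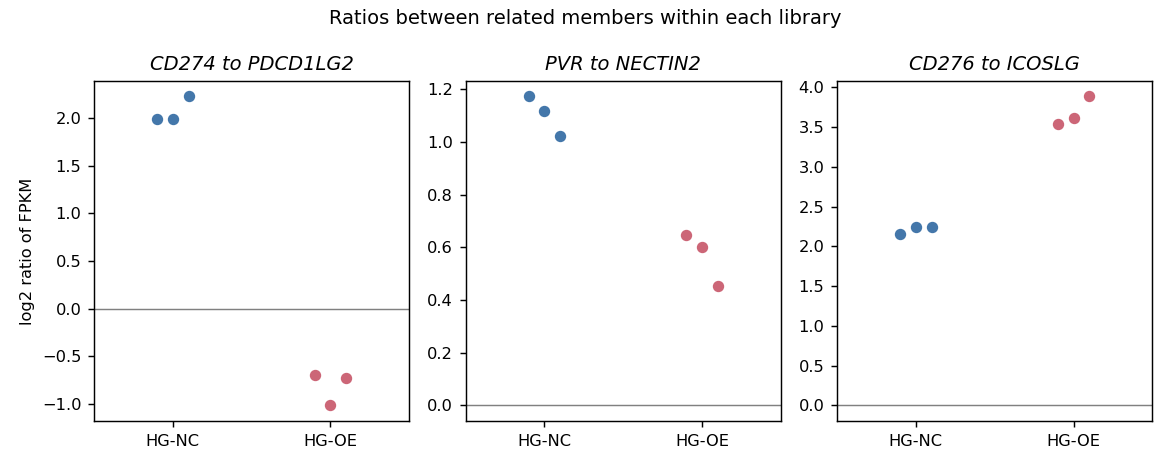
Log2 ratio of FPKM between related members within each library (y axis), for CD274 to PDCD1LG2, PVR to NECTIN2 and CD276 to ICOSLG, 1 point per library with HG-NC in blue and HG-OE in red. The first ratio lies above 0 in all HG-NC libraries (1.98 to 2.22) and below 0 in all HG-OE libraries (-1.02 to -0.70), and the groups do not overlap in any of the 3 panels.

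The promoter of CD274 is shown because this gene had the largest fold change of the set. The sequence runs from the start of the RefSeq window to the base before the annotated gene start (chr9:5450292-5450502, GRCh38.p14, plus strand, 211 bases), and capitals mark matches to the motifs searched.
CD274: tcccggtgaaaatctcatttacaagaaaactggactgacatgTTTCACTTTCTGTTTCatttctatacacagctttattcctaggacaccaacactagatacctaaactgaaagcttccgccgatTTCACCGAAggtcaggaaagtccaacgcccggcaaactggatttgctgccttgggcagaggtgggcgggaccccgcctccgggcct
The motifs were the interferon regulatory factor (IRF) element, a pair of GAAA half-sites with 2 bases between them, TTCNNNGAA, the STAT palindrome, TGANTCA, the AP-1 site, GGAANTTCC, a kappaB-like palindrome, and the NF-kB consensus by name, each on both strands. In CD274, 2 overlapping IRF matches ran from base -208 to -193 and a STAT match from -125 to -117, counted with the RefSeq start as 0. Over all 35116 promoter windows of the same length (300 bases, 250 of them before the start), 3.57% held the IRF motif and 7.66% the STAT motif. Windows were found for 8 of the 10 members, 9 windows in all, and CD40 and PDCD1LG2 have no entry in the table. A match describes letters and not binding.

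ICOSLG (ENSG00000160223.17), the ligand of the T cell costimulator ICOS, was the other member called lower by 2-fold. It lies on chromosome 21 from 44215382 to 44241446 on the minus strand. The HG-NC libraries held 803, 858 and 910 counts, and the HG-OE libraries 482, 471 and 386, or 31.95 ± 0.533 CPM and 15.3 ± 1.87 CPM (mean ± SD, n = 3). The highest HG-OE library, at 16.6 CPM, was far below the lowest HG-NC library, at 31.6 CPM, and HG-OE replicate 3 was the lowest at 13.2 CPM. The log2 fold change was -1.06 (SE 0.0809, adjusted p = 1.8e-07, edgeR), and without HG-OE replicate 3 it was -0.96, just short of 2-fold. GRCh38 carries a second copy of this gene (ENSG00000277117.5, chromosome 21, 5022531 to 5036771), which GENCODE marks as an artifactual duplication, and the authors' count of uniquely mapped reads splits reads between the copies or drops them. The copy took 130, 142 and 135 counts in HG-NC and 88, 93 and 58 in HG-OE, which is 12.9% to 16.5% of the sum. With both rows added, the log2 fold change of ICOSLG was -1.04 (SE 0.0834, adjusted p = 2.95e-07, edgeR), a setting chosen after the data were seen.

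CD276 (ENSG00000103855.18, chromosome 15, 73683966 to 73714514) encodes B7-H3, a B7 relative abundant on many epithelial cells, whose receptor on T cells is not settled. It had 2102, 2392 and 2524 counts in HG-NC and 3280, 3380 and 3350 in HG-OE. All HG-OE libraries were above all HG-NC libraries after normalization, with 87.1 ± 3.97 CPM and 114.5 ± 1.53 CPM (mean ± SD, n = 3). The rise of 31.4% (log2 fold change 0.39, SE 0.0434, adjusted p = 5.18e-06, edgeR) is well under 2-fold. The ratio of CD276 to ICOSLG by FPKM went from 4.454, 4.752 and 4.728 in HG-NC to 11.6, 12.3 and 14.8 in HG-OE. The log2 ratio was 1.46 higher in HG-OE, with SDs of 0.0521 and 0.182 in HG-NC and HG-OE (exact two-sided permutation test, p = 0.1).

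VTCN1 (ENSG00000134258.17, chromosome 1, 117143587 to 117210960, minus strand) encodes B7-H4, an inhibitory B7 ligand, and was the least abundant member. It had 28, 41 and 44 counts in HG-NC and 63, 76 and 61 in HG-OE, or 1.397 ± 0.258 CPM and 2.29 ± 0.283 CPM (mean ± SD, n = 3). The groups did not overlap, but the counts are few. Its log2 fold change of 0.71 had the largest SE of the set, 0.217 (adjusted p = 0.0143, edgeR). Without HG-NC replicate 1 it was 0.57 with an adjusted p of 0.0583, and without HG-OE replicate 2 it was 0.60 with an adjusted p of 0.0673, so the call rests on each of these libraries (edgeR). Within the B7 members, 2 were thus lower and 3 higher in HG-OE.

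CD40 (ENSG00000101017.14, chromosome 20, 46118271 to 46129863) encodes the receptor through which T cells carrying CD40 ligand activate antigen-presenting and epithelial cells. The counts of 3953, 4238 and 4393 in HG-NC and 5151, 5044 and 4855 in HG-OE correspond to 155.5, 156.6 and 157.2 CPM and to 177.5, 173.2 and 165.8 CPM. The HG-OE libraries lay just above the narrow HG-NC range. The log2 fold change was 0.14 (SE 0.0393, adjusted p = 0.00917, edgeR), a rise of 10.1%. The 108 well-counted genes within 10 Mb moved by 0.15 at the median, and the fold change of CD40 less this median was -0.0073.

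ICAM1 (ENSG00000090339.9, chromosome 19, 10271093 to 10286615) encodes the adhesion ligand of the lymphocyte integrin LFA-1 and was the most abundant member in both groups. It had 10241, 11775 and 11966 counts in HG-NC and 8311, 8233 and 7101 in HG-OE, or 422.0 ± 17.0 CPM and 270.5 ± 24.4 CPM (mean ± SD, n = 3). Each HG-OE library was lower than each HG-NC library, and HG-OE replicate 3 was the lowest. The level fell by 35.9%, a log2 fold change of -0.64 (SE 0.0570, adjusted p = 7.18e-07, edgeR), and without HG-OE replicate 3 the log2 fold change was -0.57. Antisense lncRNA genes overlap ICAM1, of which ICAM4-AS1 had 143 to 179 counts in HG-NC and 97 to 124 in HG-OE. The promoter of ICAM1 (chr19:10270870-10271092, GRCh38.p14, plus strand, 223 bases before the annotated gene start) is shown for comparison with that of CD274, with the same use of capitals.
ICAM1: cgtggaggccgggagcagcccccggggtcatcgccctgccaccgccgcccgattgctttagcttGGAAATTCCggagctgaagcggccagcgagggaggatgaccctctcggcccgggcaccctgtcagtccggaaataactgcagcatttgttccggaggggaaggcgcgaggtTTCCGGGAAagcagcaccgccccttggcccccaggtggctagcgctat
It held GGAANTTCC from base -186 to -178, a motif found in 0.965% of all windows, and a STAT match from -75 to -67, and no match to the IRF motif. Among the other members' windows, the NF-kB consensus (11.3% of all windows) matched once, in CD276, and TGANTCA (7.71%) once, in VTCN1.

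CD58 (ENSG00000116815.16, chromosome 1, 116514534 to 116571039, minus strand) encodes LFA-3, the ligand of CD2 on T and NK cells. The HG-NC libraries were at 26.07, 26.71 and 25.80 CPM, those of HG-OE at 32.8, 27.9 and 29.1 CPM. The groups did not overlap, but HG-OE replicate 2 lay close above the highest HG-NC library. Its log2 fold change of 0.19 (SE 0.0670) passed narrowly, with an adjusted p of 0.0267 (edgeR). The call was lost without HG-NC replicate 1, 2 or 3 and without HG-OE replicate 1, where the log2 fold change was 0.12 and the adjusted p 0.157 (edgeR).

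PVR and NECTIN2 are relatives that lie close together on chromosome 19. PVR (ENSG00000073008.15, 44643798 to 44666162), the stronger ligand of TIGIT and CD226, had 8259, 9194 and 9471 counts in HG-NC and 7249, 7477 and 7553 in HG-OE, or 334.4 ± 8.35 CPM and 254.8 ± 4.39 CPM (mean ± SD, n = 3). It was lower in every HG-OE library, by 23.8% on average (log2 fold change -0.39, SE 0.0371, adjusted p = 1.3e-06, edgeR). NECTIN2 (ENSG00000130202.10, 44846175 to 44889223), the ligand of PVRIG, was at 88.4, 95.95 and 102.4 CPM in the HG-NC libraries and at 97.9, 104.0 and 115.7 CPM in those of HG-OE. These ranges overlap, and the log2 fold change of 0.15 (SE 0.0637) had an adjusted p of 0.0689 (edgeR). An exact two-sided permutation test of its 3 libraries against 3 gave p = 0.2. NECTIN2 passed the threshold without HG-NC replicate 3 (adjusted p = 0.0414, edgeR) and without HG-OE replicate 1 (adjusted p = 0.0209, edgeR). Its log2 fold change was smaller without HG-NC replicate 1, at 0.097 (adjusted p = 0.287, edgeR), and without HG-OE replicate 3, at 0.078 (adjusted p = 0.179, edgeR). Its value and its side of the threshold thus depend on single libraries.

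The ratio of PVR to NECTIN2 by FPKM was 2.255, 2.172 and 2.031 in HG-NC and 1.566, 1.516 and 1.368 in HG-OE, with no overlap. CEACAM19 overlaps PVR on the same strand and had 155 to 192 counts per library. PVR stayed the more abundant of the pair in every library. The log2 ratio fell by 0.54, with SDs of 0.0768 and 0.102 (exact two-sided permutation test, p = 0.1). The median log2 fold change of the well-counted genes within 10 Mb was -0.13 for both, over 344 genes for PVR and 342 for NECTIN2, which almost coincide. With it removed, PVR was at -0.26 and NECTIN2 at 0.28.

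**Figure D3:**
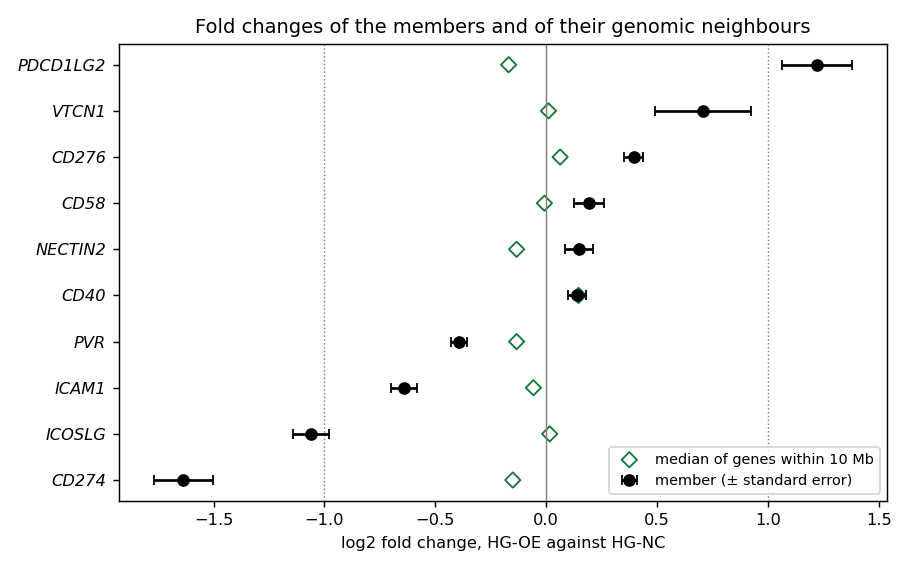
Log2 fold change of each member between HG-OE and HG-NC (x axis, black points with the SE from edgeR), with the neighbours' median (well-counted genes within 10 Mb) as green diamonds, and dotted lines at a 2-fold change. CD274 (-1.64) and PDCD1LG2 (1.22) lie at opposite ends although their neighbours' medians are -0.15 and -0.17, and the point of CD40 lies on its neighbours' median.

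Compared per length, the members spanned a wide range. In HG-NC, ICAM1 led with 109.5 ± 4.60 FPKM, followed by CD40 at 55.5 ± 0.501, PVR at 49.1 ± 1.34, NECTIN2 at 22.85 ± 1.76, CD276 at 14.2 ± 0.693 and CD58 at 13.1 ± 0.207 FPKM (mean ± SD, n = 3). Below them came CD274 at 3.46 ± 0.123, ICOSLG at 3.06 ± 0.0608, PDCD1LG2 at 0.83 ± 0.0917 and VTCN1 at 0.413 ± 0.0815 FPKM. No neighbours in this order had overlapping ranges. In HG-OE the first 6 places were the same, but ICAM1, at 69.4 ± 6.32 FPKM, and CD40, at 60.4 ± 2.26 FPKM, overlapped. Behind CD58, PDCD1LG2 (1.91 ± 0.2196 FPKM) had moved past ICOSLG (1.45 ± 0.176 FPKM) and CD274 (1.10 ± 0.245 FPKM), and the ranges of the last 2 overlapped. The summed level of the 10 transcripts was 261.9 to 277.6 FPKM in HG-NC and 223.2 to 236.6 FPKM in HG-OE, and ICAM1 made up 39.8% to 40.7% and 27.9% to 31.3% of it.

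**Figure D4:**
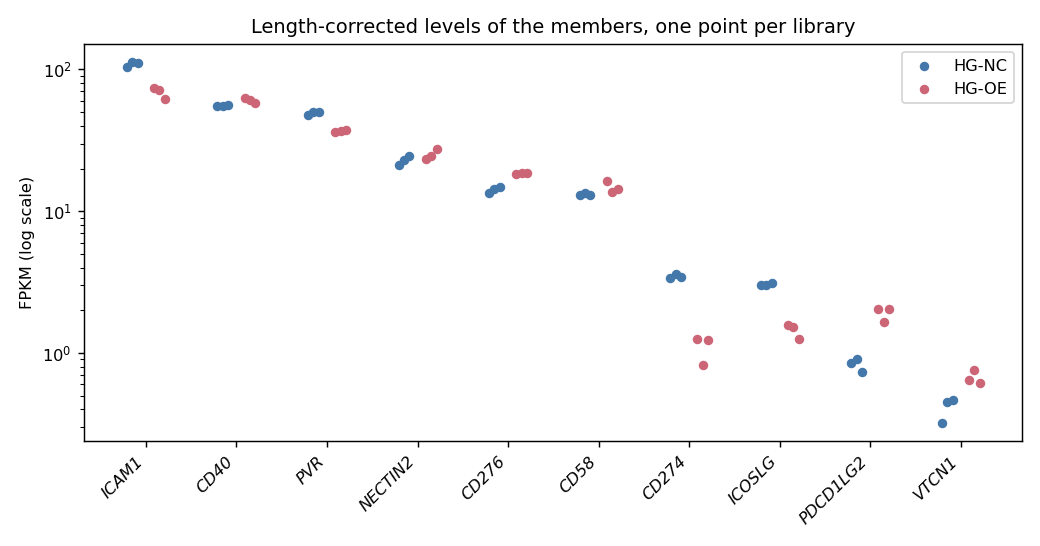
FPKM of the 10 members on a log axis, ordered by their mean in HG-NC, with 1 point per library, HG-NC in blue and HG-OE in red. ICAM1 and CD40 come together in HG-OE, and PDCD1LG2 lies below CD274 and ICOSLG in HG-NC but above them in HG-OE.

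The related ligands outside the set were described from lists of genes. Their counts stand beside the 25.9% of all genes tested that were called higher and the 25.9% called lower. Of 14 other B7 and butyrophilin ligands, 9 were tested, and none rose and 4 fell at an adjusted p under 0.05. The one DEG among them was HHLA2, a B7 relative, which went from 1.94 ± 0.527 CPM to 0.618 ± 0.208 CPM in HG-OE (mean ± SD, n = 3) with a log2 fold change of -1.65 (SE 0.313, adjusted p = 5.8e-04, edgeR). CD80 and CD86, the ligands of CD28 and CTLA4, had 0 to 5 counts in any library. Of 9 costimulatory ligands of the TNF superfamily with the receptor HVEM, 7 were tested, 2 rose and 3 fell. TNFSF14, the ligand of HVEM, and TNFSF15 rose by log2 fold changes of 2.62 and 1.41, from low means of 0.275 and 1.24 CPM to 1.71 and 3.31 CPM (adjusted p = 3.81e-05 and 4.14e-04, edgeR). The 3 that fell were more abundant. In HG-OE, TNFSF9 went from 127.1 to 89.5 CPM (log2 fold change -0.51) and CD70 from 112.4 to 100.8 CPM (-0.16). TNFRSF14, which encodes HVEM, went from 39.4 to 33.7 CPM (-0.23). Of 13 other adhesion ligands, 10 were tested, and 7 fell and none rose. Among these, ICAM2, a further ligand of LFA-1, fell by 1.04 on the log2 scale (SE 0.204, adjusted p = 7.3e-04, edgeR). Of 7 other nectins and nectin-like proteins, 5 were tested and 3 fell, with CADM1, the most counted, at -0.13.

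Of the ligands of the activating NK receptor NKG2D, 2 of 6 tested were higher and 2 lower, close to the 25.9% of all genes in either direction, and ULBP1, one of them, fell from 12.1 ± 0.481 to 5.79 ± 0.194 CPM (mean ± SD, n = 3, log2 fold change -1.07, adjusted p = 9.79e-07, edgeR). Of 10 other inhibitory ligands and enzymes, 6 were tested, 2 rose and 1 fell, and none reached 2-fold. LGALS3, the most counted, had a log2 fold change of 0.24.

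In each of 3 lists of genes that act on or downstream of the members, more were called lower than higher, where 25.9% of all genes were called in each direction. Of 9 adaptors and regulators of CD40 signalling, all were tested and 7 fell and none rose. BIRC3, an inhibitor of apoptosis recruited by TRAF proteins, fell from 172.8 ± 4.68 to 78.5 ± 10.1 CPM (mean ± SD, n = 3, log2 fold change -1.14, adjusted p = 2.22e-08, edgeR). Of 17 genes known to act on PD-L1 protein or CD274 transcription, 8 fell and 4 rose, none by 2-fold. Of the 5 NF-kB subunits, 4 fell by less than 2-fold, with NFKB1 at -0.98, REL at -0.92, RELB at -0.69 and NFKB2 at -0.39. RELA had 0.080. The medians of the 3 lists were -0.33, -0.12 and -0.69, against 0.011 over all genes tested.

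**Figure D5:**
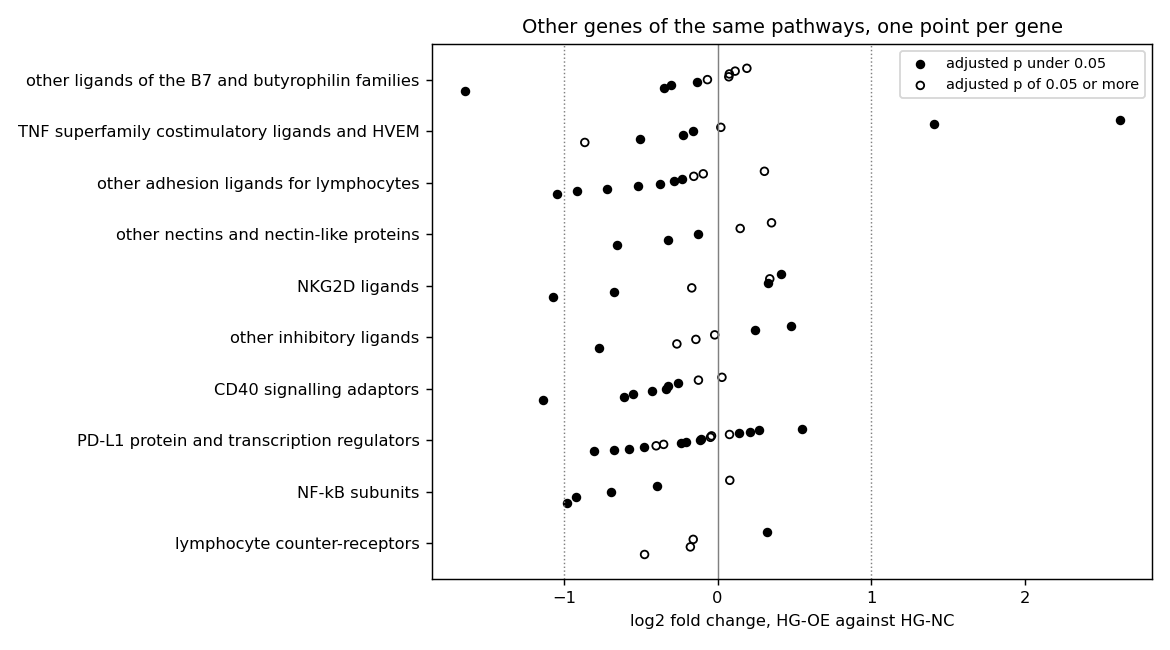
Log2 fold change between HG-OE and HG-NC (x axis) of the tested genes of 10 lists of related genes (y axis), 1 point per gene, filled where the adjusted p was under 0.05, with dotted lines at a 2-fold change. No filled point lies above 0 for the B7 and butyrophilin, adhesion, nectin, CD40 adaptor and NF-kB subunit lists. TNFSF14 lies farthest to the right at 2.62.

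Of 13 counter-receptors that read these ligands, 8 were listed and 4 tested. CD40LG, ICOS, CD28, CTLA4 and TIGIT are not among the rows used here, CD2 had at most 1 count in a library and PDCD1 4 to 14. ITGB2, the beta chain of LFA-1, had 251 to 262 counts in the control libraries and 296 to 374 with overexpression. It was the 1 of the 4 tested to pass (log2 fold change 0.32, SE 0.108, adjusted p = 0.023, edgeR), close to the 25.9% of all genes tested called higher. ITGAL, the alpha chain, had 0 or 1 count in 5 libraries and 25 in HG-OE replicate 3. RGMB, an epithelial partner of PD-L2 and the most counted of the list, had a log2 fold change of -0.18 (adjusted p = 0.107, edgeR). Among 14 leukocyte markers 13 were listed, with a summed level of 16.4 to 18.2 CPM in the control libraries and 12.7 to 24.2 CPM in HG-OE. PTPRC, which marks all leukocytes, had 1 or 2 counts in every library and CD3E 0 in all but HG-OE replicate 3, where it had 3. Of the leukocyte markers 6 were tested, with 1 higher and 3 lower, where 25.9% of all genes tested were called in each direction. CD14 was a DEG, with a log2 fold change of 1.41. It had 428 counts in HG-OE replicate 3 against 120 and 141 in the other HG-OE libraries. CSF1R was a DEG at -1.05. ITGAX (99 to 185 counts, -0.66) and CD68 (34 to 65 counts, -0.67) were also lower. For counting error alone, a 0 in one library is compatible with as many as 3 counts.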

How the data were processed

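Gene expression was measured by RNA-seq of poly(A) RNA in 3 HG-NC and 3 HG-OE libraries, grouped by their labels. The authors trimmed the reads and aligned them to GRCh38 with HISAT2, and deposited whole-number counts of uniquely mapped read pairs per gene. A companion table of FPKM from the authors gives 2 decimals. The paper names a batch correction without naming batches, and whether it entered the counts is not stated.

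Counts were normalized by TMM and tested with the quasi-likelihood test of edgeR 4.0.16 in R 4.3.3, with DESeq2 1.42.0 and limma 3.58.1 as alternatives. The default filter kept 17142 of 31831 genes, and p-values were adjusted over these by the Benjamini-Hochberg method. DEGs required an adjusted p under 0.05 and a 2-fold change. Standard errors of the log2 fold change come from the same fit. Each library held at least 25507595 counts, so that members other than VTCN1 and PDCD1LG2 had at least 100 counts in every library. Positions come from GENCODE release 44 on GRCh38, matched by gene ID without its version, and promoter windows from RefSeq (GRCh38.p14). Neighbours are tested genes within 10 Mb with a mean of at least 100 counts. The steps were tested on simulated data.

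The members and lists were chosen with earlier results of these data known. All members were named, and of the other lists the DEGs or, where there were none, the most counted gene. For the list of PD-L1 regulators that gene is not reported here. RELA, CD80, CD86, PTPRC, CD3E, CD2, PDCD1, ITGB2, ITGAL, LRP2, GATM, ALB, SERPINA1 and CDH1 were chosen after their values were seen. So were EPCAM, KRT19, PAX8, ALPL, ERG, APOB, TF, FGA, NFKB1, REL, RELB, TNFSF9, CD70 and TNFRSF14. The same holds for LUM, COL1A1, COL1A2, ITGAX and CD68. Same-numbered libraries of the groups did not deviate together (correlations of -0.027, 0.030 and -0.00099), so the replicate number was not used as a block. The alternatives tried were other size factors, filters and tests, FPKM on log scales with pseudocounts of 1 and 0.1, each library left out, the replicate block, removal of the neighbours' median and the summed ICOSLG copies. Splicing was not analysed here.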

Additional observations from a re-analysis of the deposited data

How the results depend on the processing

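Under the 15 alternatives with a test, no member changed direction, and CD274, PDCD1LG2, CD276, ICOSLG, ICAM1, PVR and CD40 kept an adjusted p under 0.05. CD274 ran from -1.73 to -1.09 on the log2 scale. Removing the neighbours' median turned CD40 to -0.0073, moved PVR to -0.26 and NECTIN2 to 0.28, and gave no counts of calls. The count of members called higher (5) was 3 to 5 with a library left out and 3 on log2(FPKM + 1) without a filter. The count called lower stayed at 4 throughout. On log2(FPKM + 1), with or without the filter, 0 members were called higher by 2-fold and 1 lower, a scale that shrinks the changes of low genes. With each library left out, 1 to 2 members were called lower by 2-fold, with 1 without HG-OE replicate 3, where ICOSLG was at -0.96. CD58 lost its call in 8 alternatives, VTCN1 in 3, and NECTIN2 gained one in 4, causes that were not tested. With the replicate block, 6 members were called higher and 4 lower, as NECTIN2 then had an adjusted p of 0.00966 (edgeR), and it changed no other call. Not every library correlated best with the library of its own number. With 3 libraries per group, this cannot show whether same-numbered samples were handled together. With a library left out, the log2 ratio of CD274 to PDCD1LG2 ran from -2.94 to -2.78, that of PVR to NECTIN2 from -0.58 to -0.48 and that of CD276 to ICOSLG from 1.36 to 1.54, the last moving by more than the SD within HG-NC (0.0521) but less than that within HG-OE (0.182). Over all genes tested, 632 DEGs were higher and 365 lower, against 1103 and 436 without a filter, 370 and 247 with at least 10 counts in every library, 76 and 68 on log2(FPKM + 1), and 70 and 68 on that scale without a filter. Few counts limit VTCN1 and PDCD1LG2.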
